A study of Mus musculus with 10 samples.

Results

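Chromatin regions open in the early epicardium but called neither in the late epicardium nor in its migrated descendants were collected from 9 ATAC-seq peak lists. The intervals of all lists on chromosomes 1 to 19 were merged into 154886 union regions, of which 126783 lay more than 1 kb from every annotated transcription start site (TSS) and are called distal here. A list called a region when 1 of its intervals overlapped it by at least 1 bp. The E11.5-only distal regions were selected on these measured calls: all 3 lists of E11.5 epicardium called them and none of the 3 lists of E17.5 epicardium or of the 3 lists of epicardium-derived cells (EPDCs) did. There were 5811 such regions, 4.58% of all distal regions and 9.42% of the 61705 distal regions that all 3 E11.5 lists called. The count depended on the lists, with 2748 regions when equal numbers of top peaks were taken from each and 8904 without E11.5 replicate 1. Since the calls chose the regions, their presence at E11.5 and absence elsewhere is a description and was not tested.

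All cells came from hearts of C57BL/6J embryos of the genotype Rosa26tdTomato;Wt1CreERT2/+, in which tamoxifen, given at E9.5, switched on tdTomato in cells expressing Wt1 and thereby in their later progeny. Littermate hearts were pooled before sorting, 6 per sample at E11.5 and 4 per sample at E17.5. Epicardial cells were sorted as CD31-tdTomato+PDPN+ at E11.5 (3 samples) and E17.5 (3 samples). EPDCs were sorted as CD31-tdTomato+PDPN- from 1 sample of E12.5 hearts and 2 samples of E13.5 hearts, the second of which had been sequenced as technical replicates that share 1 peak list. The label depends on the cells that expressed Wt1 when tamoxifen acted, and the Wt1CreERT2 allele is carried by every group. Stage and sorted population differ together between E11.5 epicardium and EPDCs, so these cannot be told apart in that comparison.

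The epicardium is the mesothelial sheet that covers the heart. During midgestation some of its cells undergo epithelial-to-mesenchymal transition, enter the myocardium and give rise to cardiac fibroblasts and mural cells, while those that stay on the surface mature into a flat, less plastic layer. ATAC-seq cuts DNA where nucleosomes leave it accessible, and peaks far from a TSS are often enhancers, short sequences whose bound transcription factors act on a gene at a distance. Among the factor families known in the epicardium are GATA4 and GATA6, the T-box factors TBX18 and TBX20, the TEAD factors that carry Hippo signalling to DNA, and the TALE homeodomain factors MEIS and PBX.

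The sequences of several of these regions are shown first, because the results on sequence content turn on them. Each run covers the summit of the strongest E11.5 peak and 75 bases on either side, on the forward strand of GRCm38, the assembly also named mm10. Capitals mark exact matches, on either strand, to AGATAA (the core bound by GATA factors), GGAATG (TEAD), TAATTA (homeodomain), AGGTGT (T-box) and TGACAG (TALE). The regions are named after the nearest protein-coding gene, which need not be the gene they act on, and they were chosen from the named regions for the patterns they carry.
Apba1 region, chr19:23930951-23931101, + strand: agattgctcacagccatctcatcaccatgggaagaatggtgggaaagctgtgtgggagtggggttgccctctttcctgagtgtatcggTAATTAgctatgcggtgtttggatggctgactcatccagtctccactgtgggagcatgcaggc
Frem1 region, chr4:83017041-83017191, + strand: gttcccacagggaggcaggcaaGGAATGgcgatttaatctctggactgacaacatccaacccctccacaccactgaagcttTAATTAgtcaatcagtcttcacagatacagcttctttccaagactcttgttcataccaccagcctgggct
Rims1 region, chr1:22422231-22422381, + strand: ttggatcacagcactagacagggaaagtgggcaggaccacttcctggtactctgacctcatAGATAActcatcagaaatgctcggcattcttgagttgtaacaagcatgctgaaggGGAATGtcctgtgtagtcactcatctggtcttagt
Cnst region, chr1:179617221-179617371, + strand: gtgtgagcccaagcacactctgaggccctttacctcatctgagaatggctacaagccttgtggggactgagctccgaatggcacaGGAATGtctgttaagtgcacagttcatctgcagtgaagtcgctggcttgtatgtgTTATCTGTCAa
Trhr region, chr15:44076276-44076426, + strand: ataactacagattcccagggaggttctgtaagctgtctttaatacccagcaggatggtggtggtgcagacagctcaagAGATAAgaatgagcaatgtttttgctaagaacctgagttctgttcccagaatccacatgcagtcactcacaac
Scg2 region, chr1:79458689-79458839, + strand: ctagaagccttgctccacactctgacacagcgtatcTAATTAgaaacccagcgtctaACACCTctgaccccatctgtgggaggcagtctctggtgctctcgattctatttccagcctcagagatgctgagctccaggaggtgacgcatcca
Tas2r118 region, chr6:24025815-24025965, + strand: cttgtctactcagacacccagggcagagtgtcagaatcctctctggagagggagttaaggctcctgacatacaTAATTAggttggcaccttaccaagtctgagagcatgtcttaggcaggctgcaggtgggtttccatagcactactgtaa
Nfib region, chr4:82660284-82660434, + strand: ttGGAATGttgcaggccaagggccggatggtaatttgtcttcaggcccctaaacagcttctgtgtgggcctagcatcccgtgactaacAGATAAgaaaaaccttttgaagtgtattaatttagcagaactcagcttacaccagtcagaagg
Opcml region, chr9:27677002-27677152, + strand: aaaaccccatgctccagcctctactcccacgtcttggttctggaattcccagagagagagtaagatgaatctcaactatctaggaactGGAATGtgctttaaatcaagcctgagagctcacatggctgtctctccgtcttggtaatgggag
Hoxb1 region, chr11:96372556-96372706, + strand: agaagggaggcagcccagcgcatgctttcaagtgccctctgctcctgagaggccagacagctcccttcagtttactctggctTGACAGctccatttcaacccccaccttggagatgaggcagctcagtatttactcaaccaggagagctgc
Axin2 region, chr11:108848197-108848347, + strand: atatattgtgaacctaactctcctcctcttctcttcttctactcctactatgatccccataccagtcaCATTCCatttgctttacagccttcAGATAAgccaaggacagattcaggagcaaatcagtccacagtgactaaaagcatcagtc
Vgll2 region, chr10:51956588-51956738, + strand: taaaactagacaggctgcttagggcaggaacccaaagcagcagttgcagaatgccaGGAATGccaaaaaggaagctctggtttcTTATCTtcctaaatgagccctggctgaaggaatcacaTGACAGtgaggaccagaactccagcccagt
The Rims1 region held a GATA match 9 bases before its summit and a TEAD match 41 bases after it. In the Axin2 region a TEAD match lay 2 bases before the summit and a GATA match 17 bases after it, and the Vgll2 region held GATA, TEAD and TALE matches at most 46 bases from the summit. The Tas2r118 region had a homeodomain match across its summit, and the Frem1 region 1 match 6 bases after it. A match describes letters and does not show that a factor was bound.

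The peak lists were of unequal length and depth, which bears on a set defined by absent calls. They held 73606 to 106836 peaks on these chromosomes, with 95028, 106836 and 104166 in the E11.5 lists, 73606, 91550 and 81057 in the E17.5 lists and 78172, 84557 and 103205 in the EPDC lists. The genome-wide background of a list, solved from the fold and p of its peaks, ran from 2.07 fragments in E17.5 replicate 1 to 10.9 in the second E13.5 EPDC sample. The fewest fragments that gave a call at this background were 2.2 to 4.35 times the background, the highest ratio being that of E17.5 replicate 1. The EPDC lists also stood apart: 348 union regions were called by no epicardial list and yet sat at rank percentile 85 or above in all 3 EPDC lists, against 0 regions of the converse kind. Of the 348, 240 lay within 1 kb of a TSS and 2 E11.5-only distal regions lay within 5 kb of one. A difference between the cells and a difference in how the lists were filtered cannot be told apart here, and leaving out those 2 gave 5809 regions.

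The sorted populations were checked at the promoters of marker genes, counted as called when a peak came within 500 bp of a TSS. All 10 epicardial marker promoters (among them Wt1, Tbx18, Tcf21 and Upk3b) were called in each of the 3 E11.5 and 3 E17.5 lists, with a mean rank percentile of 88.4 to 89.8 at E11.5, 83.1 to 85.1 at E17.5 and 69.3 to 80.1 in the EPDC lists, which called 9 or 10 of them. Promoters of fibroblast and mural markers were called at 11 of 12 genes at E11.5, Postn being without a peak there, and at 12 of 12 in the other lists. Cardiomyocyte promoters were called at 10 or 11 of 12 genes at E11.5, 7 to 9 at E17.5 and 5 to 7 in EPDCs, with Myh6, the alpha myosin heavy chain, uncalled in every list. Endothelial promoters were called at 5 or 6 of 10 genes in each list, and Pecam1, Cdh5, Tie1 and Emcn were uncalled in all 9. Erythroid and leukocyte promoters were called at 2 to 4 of 10 genes, without Ptprc, Csf1r and Hba-a1 in any list, neural crest promoters at 3 to 6 of 6, without Sox10 at E11.5, and endoderm promoters at 7 or 8 of 10, without Alb and Hnf4a in any list. Accessible promoters need not be transcribed, and in sorted pools fewer open cells and less openness per cell cannot be told apart.

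E11.5-only distal regions were weak peaks. Each peak was ranked by its -log10 p among all peaks of its own list, so that percentile 100 is the strongest. The mean percentile over the 3 E11.5 lists had a median of 26.4 and an interquartile range of 17 to 38.4, from 0.939 to 86.0. In replicates 1, 2 and 3 the median percentile was 23.2, 30.1 and 27.6, the median fold enrichment over local background 4.31, 5.04 and 4.98, and the median pileup 23, 26 and 23 fragments. The mean percentile was below 50 in 5243 of the 5811 regions. Percentile 50 or above was reached in all 3 lists by 266 regions (4.58%), percentile 75 by 7 and percentile 90 by 0. The 266 became 585 by percentile of fold, 74 with equal numbers of top peaks per list, 553 without E11.5 replicate 1 and 467 without the E12.5 EPDC sample. The percentile of a region varied between the 3 E11.5 samples with a median SD of 7.97 points.

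The share of E11.5-only regions fell steadily with strength. Among distal regions that all 3 E11.5 lists called, 31.8% of those with a mean percentile under 10 were E11.5-only, against 14.5% from 30 to 40, 4.95% from 50 to 60, 0.424% from 70 to 80 and 0 of the 2552 regions from 90 to 100. The share called by all 9 lists went the other way, from 6.21% to 99%. The number of other lists calling a region was also uneven: 5811 regions had 0 of the 6 others, 3662 had 1, 3896 had 2, 10107 had 3 and 26671 had all 6. Among regions with exactly 1 other call, that call came from the second E13.5 EPDC sample in 1502 regions, from E17.5 replicate 2 in 902 and from E17.5 replicate 1, the shortest list, in 83. Of the E11.5-only regions, 4069 (70%) stood above the highest of the calling limits in all 3 E11.5 lists, and 606 stood above 2 times that limit. The rest did not exceed it in at least 1 E11.5 list, so that at their pileup a call in every other list would not have been assured. A call was not assured above the limit either, since it rests on few fragments (9 in E17.5 replicate 1) and on the genome background alone.

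**Figure D1:**
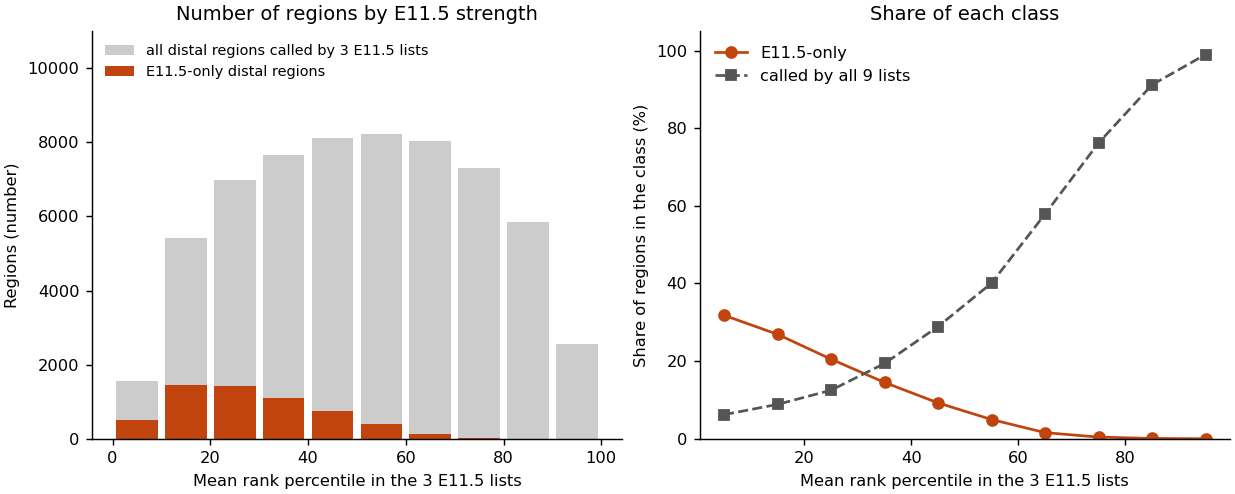
Left, number of distal regions called by all 3 E11.5 lists (grey) and of E11.5-only distal regions (orange, drawn over the grey) by mean rank percentile in the 3 E11.5 lists. Right, share in percent of E11.5-only regions and of regions called by all 9 lists among the grey bars; the E11.5-only share goes from 31.8% to 0 and the other from 6.21% to 99%.

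Regions called by a pair of E11.5 lists were called by the remaining one less often where no other population called them, in sets not matched for peak strength. Of distal regions called by E11.5 replicates 2 and 3 and by no E17.5 or EPDC list, 65.8% of 8828 were also called by replicate 1. The corresponding share was 87.6% of 6637 for replicate 2 and 81.3% of 7146 for replicate 3. For regions with at least 1 call outside E11.5 the shares were 92.6%, 97.5% and 96.2%. Replicate 1, which had the fewest peaks of the 3, thus held back the most regions.

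The E11.5-only regions closest to a TSS lay 1001 bp from that of Lrig1, 1009 bp from Rtn4 and 1018 bp from Fbxo25, with mean percentiles of 8.56, 23.1 and 19.5. Just inside the limit, and so not members, were regions 998 bp from Pik3c2g, 993 bp from Rbfox3 and 989 bp from Gm48479, at 17.3, 47.2 and 31.8. Within 1 kb of a TSS the same pattern of calls was found in 498 of 28103 union regions (1.77%). Among the weakest members were regions near Tcf7l1, at 0.941, and Zfp438, at 1.21.

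The strongest of these regions lay in an intron of Apba1 (chr19:23930800-23931348, 26.3 kb downstream of its TSS), which encodes a neuronal adaptor protein. Its peak stood at percentile 84.1, 86.2 and 87.7 in E11.5 replicates 1, 2 and 3 (86.0 ± 1.84, SD, n = 3), with 97 to 114 fragments and a fold of 15, 16.4 and 20 over local background. Its sequence held a homeodomain match 13 bases after the summit and also, in lower case above, a match to the AP-1 pattern TGANTCA. The next was an intronic region 3.75 kb downstream of the Frem1 TSS (chr4:83016735-83017347). Frem1 encodes an extracellular matrix protein of epithelial basement membranes. Its percentiles were 79.6, 82.5 and 82.7 (81.6 ± 1.73), with a lower fold of 9.42, 10.1 and 10.9.

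Further down the order the samples overlapped. The intergenic region 74.7 kb downstream of the nearest TSS of Eya4 (chr10:23039791-23040487), a transcriptional coactivator gene, had percentiles of 74.1, 84.4 and 82.4, and the intronic region 12.9 kb from the start of Kalrn (chr16:34405044-34405620), which encodes a guanine nucleotide exchange factor, had 78.5, 81.8 and 80.7. The intronic region of Rims1 (chr1:22421950-22422496), a presynaptic active zone gene, stood at 78.4, 76 and 84, and that of Cnst (chr1:179616958-179617648), named for consortin, at 76.8, 82.6 and 78.8. None of these means differed from its neighbour in the order by more than the SD of 1.72 to 5.46 points. The other 6 of the 12 strongest had means of 77.9 to 79.0. They lay near Trhr (chr15:44075863-44076703), Abcc12 (chr8:86349837-86350673), Mt4 (chr8:94118808-94119555), Snx7 (chr3:117842594-117843115), Scg2 (chr1:79458527-79459046) and Tas2r118 (chr6:24025546-24026232). In this group of 6, replicate 1 was the lowest of the 3 lists for every region but that of Snx7, where replicate 3 was lower at 75.4 against 75.7.

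**Figure D2:**
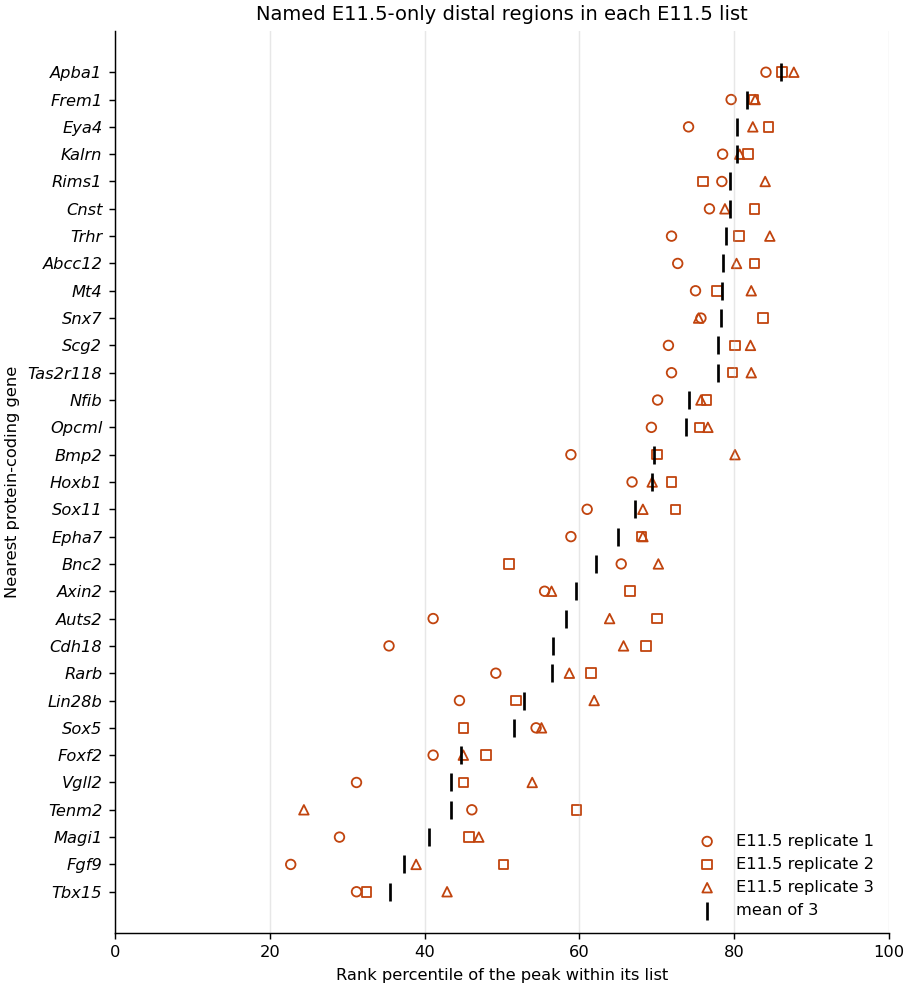
Rank percentile of the peak in each of the 3 E11.5 lists (open symbols) and their mean (bar) for the 31 named E11.5-only distal regions, by nearest protein-coding gene. Means run from 86.0 at Apba1 to 35.5 at Tbx15, and the spread between lists is widest at Cdh18 and Tenm2.

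Most of the regions lay inside a gene, and farther from a TSS than distal regions as a whole. Introns held 52.4% of them, exons 3.67% and intergenic sequence 43.9%, close to all distal regions at 52.4%, 4.71% and 42.9%. The median distance to a protein-coding TSS was 38.4 kb (interquartile range 12.4 to 114 kb), against 26.5 kb for all distal regions, 18.6 kb for the 4000 E17.5-only regions, 36.3 kb for the 4211 EPDC-only regions and 22.4 kb for regions called by all 9 lists. More than 100 kb separated 27.5% of them from the nearest such TSS, compared with 20.6%, 14.5%, 27.2% and 15.8% in those sets. On their chromosome, 475 of the regions (8.17%) were followed by another of their kind as the next distal region, where 4.58% of all distal regions were of that kind, and 238 of these pairs lay within 10 kb. The same held for E17.5-only regions (5.65%, against 3.15% of all distal regions) and EPDC-only regions (11.3%, against 3.32%). The regions spread over all 19 autosomes, making up 3.97% to 4.98% of the distal regions of each.

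In sequence, E11.5-only distal regions held the GATA, TEAD and homeodomain patterns more often than the other sets of distal regions did. Within 250 bp of the summit, AGATAA occurred in 2372 of the 5811 regions (40.8%, Wilson 95% interval 39.6 to 42.1), against 33.7% of all distal regions, 32.6% of E17.5-only and 32.3% of EPDC-only regions. GGAATG occurred in 41.2% (40 to 42.5), against 35.8%, 35.6% and 30.8%. TAATTA occurred in 15.8% (14.8 to 16.7), against 9.15% of E17.5-only and 9.05% of EPDC-only regions and 14549 of the 126783 distal regions. For these 3 patterns the E11.5-only share was above the share in each of the other sets, regions called by all 9 lists included (31.7%, 38.1% and 9.63%). The homeodomain excess of 4.3 points over all distal regions was 2.4 within 100 bp of the summit. It was 9.6 among the 266 regions counted above for their percentile in every E11.5 list. Among the same 266 the TEAD excess of 5.5 was 13.1. Both values for the 266 were set against all distal regions, so peak strength was not matched. The intervals cover counting error over regions only, and regions of 1 sample are not replicates, so no test was made.

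The other patterns differed in their order across the sets. The T-box pattern AGGTGT was found in 24.7% of them, above the 21.2% of all distal regions and the 13.7% of EPDC-only regions and below the 30.9% of E17.5-only regions. The TALE pattern TGACAG was found in 42.2% (E17.5-only 33.0%, EPDC-only 44.5%, all distal 39.1%). The second TALE pattern, TGATTGA, occurred in 6.18%, the highest share of these sets, against 4.3%, 4.56% and 4.78%. The SOX pattern ACAATG lay in 22.9%, between 15.9% of E17.5-only and 26% of EPDC-only regions. The patterns of AP-1 (TGANTCA), NFI (TTGGCA) and C/EBP (TTGCNNAA) were found less often than in all distal regions: 23.6% against 25.7%, 26.1% against 30.7% and 18.8% against 21%. For AP-1 the direction turned among the 266 regions at percentile 50 or above in all 3 lists, of which 35.7% held the pattern, and the difference was -0.2 points with equal numbers of top peaks per list. The T-box excess of 3.5 points over all distal regions was 1.5 with equal top peaks and 2.0 within 100 bp of the summit. That of TGACAG went from 3.1 to 1.1 among the 266, and that of SOX from 0.9 to -0.4 within 100 bp. Values with equal top peaks and among the 266 were set against all distal regions of the full lists, so peak strength was not matched. In E17.5-only regions AP-1, NFI and C/EBP stood at 38.2%, 46.6% and 27.0%. AP-1 factors are general activators of enhancers, and NFI factors are known from late steps of differentiation in several tissues. The short G-rich core used for WT1 (GNGGGNG) was in 68.0% of the regions and 65.9% of all distal ones, below the 73.1% of regions called by all 9 lists and the 70.4% of those called by all 3 E11.5 lists, and the CTCF core AGGGGGC in 8.33% and 8.29%. Of the 23 patterns searched on both strands, some overlap by construction, as the long T-box pattern AGGTGTGA contains the short one (2.56% against 2.1%).

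**Figure D3:**
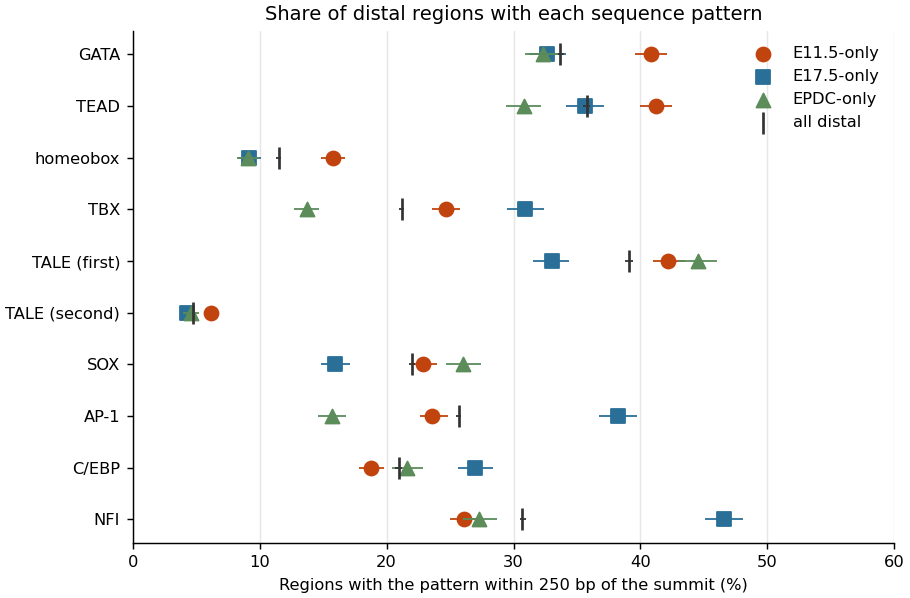
Share of regions, in percent, with each pattern within 250 bp of the summit for E11.5-only, E17.5-only and EPDC-only distal regions and for all distal regions; horizontal lines are Wilson 95% intervals. TALE (first) is TGACAG and TALE (second) is TGATTGA; E11.5-only regions have the highest share at GATA, TEAD, homeobox and TALE (second), and E17.5-only regions at TBX, AP-1, C/EBP and NFI.

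GATA and TEAD matches gathered near the summits. Per 25-bp step, GATA matches went from 9.48 per 100 regions next to the summit to 3.51 in the step beyond 200 bp, where all distal regions had 6.55 and 3.64. TEAD matches went from 12.4 to 3.67, against 8.25 and 3.27. The homeodomain pattern showed no such peak: it stood at 1.88 next to the summit and 2.12 beyond 200 bp, above all distal regions (1.0 and 1.63) at both. Within 50 bp of the summit, 19.6% of the E11.5-only regions held the TEAD pattern and 16.6% the GATA pattern. Both patterns occurred together in 1026 regions (17.7%), against 12.3% of all distal regions. The Rims1, Cnst, Nfib, Axin2 and Vgll2 regions printed above are examples, each with both patterns.

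**Figure D4:**
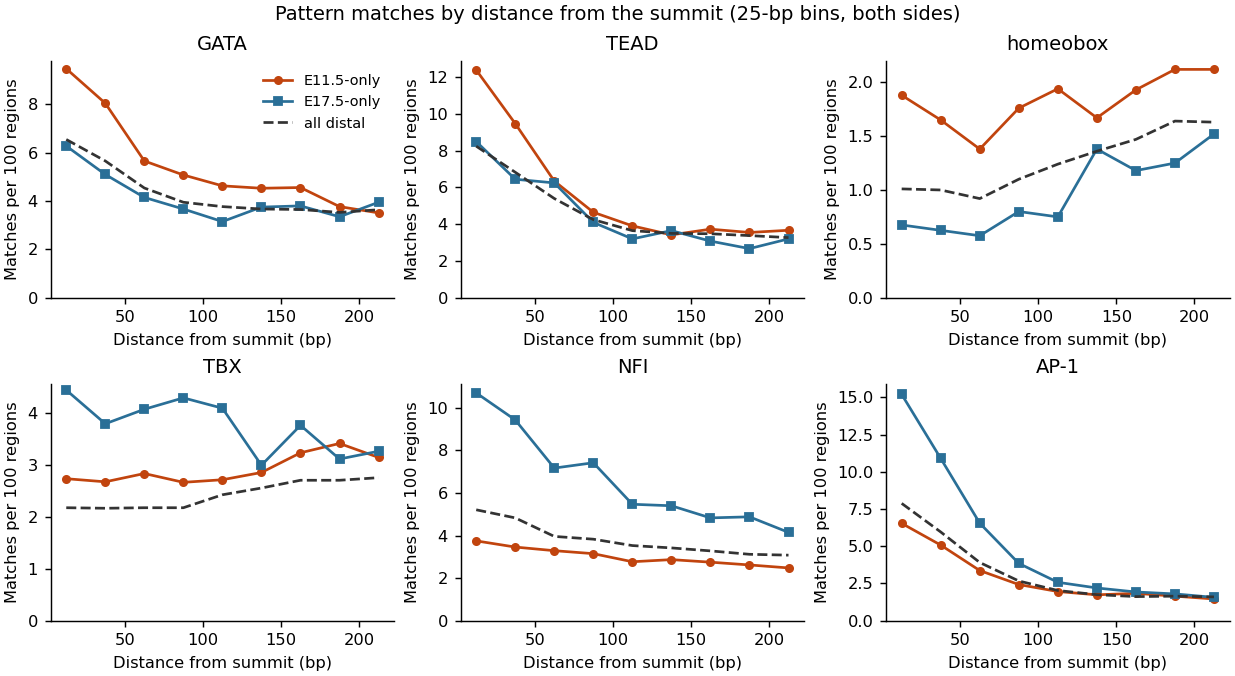
Matches per 100 regions in steps of 25 bp by distance from the summit, both sides added, for 6 patterns in E11.5-only, E17.5-only and all distal regions. In E11.5-only regions GATA and TEAD rise to 9.48 and 12.4 next to the summit, the homeobox pattern is level, and NFI and AP-1 lie below all distal regions there.

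Peak strength and base composition differ between the sets and move pattern shares, so both were held within classes. Among distal regions called by all 3 E11.5 lists, the GATA share of E11.5-only against other regions was 39.6% against 37.0% at mean percentile 0 to 20, 42.2% against 35.6% at 20 to 40 and 40.1% against 32.8% at 40 to 100. The TEAD shares were 37.5% against 34.6%, 42.0% against 34.8% and 45.1% against 38.6%, and those of the homeodomain pattern 15.6% against 10.5%, 15.6% against 11.1% and 16.3% against 10.9%. All 3 patterns were thus more frequent in E11.5-only regions in each class. The NFI share was lower in each, at 26.1% against 32.0%, 25.6% against 29.4% and 27.2% against 29.1%. The AP-1 share was 19.3% against 20.7% in the weakest class but 24.9% against 23.8% and 27.7% against 27.8% in the others, so its lower share was not found in the middle class. The median GC content was 46.7%, with 47.1% in all distal regions. Below the GC median the GATA share was 49.2% against 41.8% of all distal regions and above it 30.9% against 25.3%, and for the homeodomain pattern the values were 20.6% against 16% and 10% against 6.81%. The TEAD share was 45.3% against 37.2% below the GC median, but 36.5% against 34.2% above it, where regions called by all 9 lists had 35.9%.

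The nearest protein-coding genes numbered 3576, of which 2378 had 1 E11.5-only region and 126 had 5 or more. Opcml, a neural cell adhesion gene of the IgLON family, had the most, 14 of its 69 distal regions (20.3%). Auts2 and Sox5 followed with 12 each, of 153 and 112 (7.84% and 10.7%), then Tenm2, a teneurin, with 11 of 113 (9.73%) and Magi1, a scaffold protein of cell junctions, with 10 of 114 (8.77%). These are long or isolated genes with many distal regions, and the share is the value to be read against 4.58%. The leading Opcml region (chr9:27676819-27677398) lay 113 kb upstream of the TSS at percentiles 69.3, 75.5 and 76.6.

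Genes of known roles were then taken in 14 lists, and the share of E11.5-only regions among the distal regions nearest to their genes was counted. Among epicardial identity genes and transcription factors the count was 40 of 974 distal regions (4.11%), led by Maf with 7 and Bnc2, a mesothelial zinc finger gene, with 6. Wt1, Tcf21, Aldh1a2, Gata4, Gata6 and Tbx20 had 0. The leading Bnc2 region (chr4:84090366-84090688), intergenic and downstream of the start of the gene, stood at 65.4, 50.9 and 70.2. T-box genes had 6 of 243 (2.47%), 2 of them nearest to Tbx18, and nuclear factor I genes 4 of 205 (1.95%), 3 of them nearest to Nfib. The intronic Nfib region printed above (chr4:82660070-82660701) was nonetheless strong, at 70.1, 76.4 and 75.7. Epicardial markers alone had 5 of 209 (2.39%). The shares of these 3 lists were below the 4.58% of all distal regions.

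Of the 14 lists, chosen with earlier results of these data known, that of 8 fetal timing genes had the highest share, 11 of 110 (10%). This list holds RNA-binding and chromatin proteins known for high levels early in development. Hmga2 had 5, Lin28b, which blocks maturation of let-7 microRNAs, had 4 of its 6 distal regions, and Igf2bp2 and Igf2bp3 had 1 each. The leading Lin28b region, 10.8 kb inside the gene (chr10:45458758-45459408), had percentiles of 44.5, 51.8 and 61.9. Cadherins and desmosome genes had 45 of 654 (6.88%), with 6 at Cdh2 (N-cadherin) and 5 each at Cdh8 and Cdh26, and FGF ligands and receptors 20 of 297 (6.73%), with 6 at Fgf9, an epicardial mitogen, and 4 at Fgf10. The strongest Fgf9 region, intronic and 5.38 kb from the start (chr14:58081883-58082285), varied widely at 22.7, 50.2 and 38.9.

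The remaining lists were near the share of all distal regions or below it. Wnt genes had 35 of 682 (5.13%), led by Tcf7l2 with 5, and the leading region of Axin2, a feedback inhibitor of Wnt signalling, lay in an intron of the neighbouring gene Cep112 (chr11:108848053-108848715) at 55.5, 66.5 and 56.4. Sox genes had 28 of 567 (4.94%), with 12 at Sox5 and 6 each at Sox2 and Sox11. Axon guidance genes had 81 of 1671 (4.85%), with 6 each at Plxna2 and Nrp2, and BMP and TGF-beta genes 37 of 776 (4.77%), with 7 at Id4 and 4 at Bmp2. Retinoic acid genes had 12 of 271 (4.43%), 3 of them at the receptor gene Rarb, Hox genes 3 of 72 (4.17%), EMT transcription factors 15 of 384 (3.91%) and Hippo pathway genes 6 of 232 (2.59%). The intergenic Hoxb1 region 6.1 kb downstream of the TSS (chr11:96372354-96372985) stood at 66.8, 71.9 and 69.4. It carried the TALE pattern 7 bases after its summit. Regions nearest to markers of other cells were 5 of 94 for cardiomyocytes (5.32%, 4 at Ryr2), 6 of 156 for endothelium (3.85%), 2 of 62 for blood cells (3.23%), 3 of 158 for fibroblasts and mural cells (1.9%), 1 of 36 for neural crest (2.78%) and 4 of 63 for endoderm (6.35%). What part other cells had in these regions was not tested.

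The rule used no peak at promoters, so promoters of the nearest genes were compared between the populations with limma and Benjamini-Hochberg adjustment over all 15084 promoters tested, on the percentile of the strongest peak within 500 bp of a TSS and 0 where none was called. Of all promoters, 16.2% were higher and 4.05% lower in E11.5 than in E17.5 epicardium at an adjusted p under 0.05. Of the 3097 nearest genes whose promoter was tested, 709 (22.9%) were higher and 94 (3.04%) lower (56 and 52 lower without E17.5 replicates 2 and 3), and of the 11987 other genes 14.5% were higher and 4.31% lower. Their median difference was 1.16 points, against 0.5 in other genes. The share that was higher went with the number of E11.5-only regions near the gene, from 14.5% of genes with 0 through 21.6% with 1, 23.9% with 2 and 26.2% with 3 or 4 to 28.9% of the 121 genes with 5 or more. Genes with many distal regions of any kind are more likely to have such a region (median 14 distal regions, against 2 for other genes), so genes were also compared within classes of that number. Genes with 1 to 4 distal regions were higher in 19.3% where at least 1 was E11.5-only and in 14.7% where none was, and the pairs were 27.2% and 16.8% for 5 to 9, 24.7% and 15.6% for 10 to 19, and 20.7% and 17.6% for 20 or more. Genes nearest to E17.5-only regions were higher at E11.5 in 16.1% and genes nearest to EPDC-only regions in 21%.

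Against EPDCs the share that was higher was lower among the nearest genes than among all promoters. Among genes with similar numbers of distal regions, nearest genes had the lower share only in the class of 20 or more. Of all promoters, 12.7% were higher and 5.85% lower in E11.5 epicardium than in EPDCs, and of the nearest genes 360 (11.6%) were higher and 145 (4.68%) lower, both below the share of all promoters. For the lower share this held in 11 of 18 settings, and it turned without any 1 of the 3 EPDC lists (3.97%, 2.08% and 2.9%, against 3.6%, 1.7% and 2.46%). The 360 became 158 and 559 without the first and second E13.5 samples and 234, 173 and 200 without E11.5 replicates 1, 2 and 3, and the 145 became 64 and 89 without the E13.5 samples. By number of E11.5-only regions the share that was higher went from 13.0% of genes with 0 to 7.44% of genes with 5 or more. Within the classes of distal-region number, genes with at least 1 E11.5-only region were higher in 63 of 446 cases and genes with none in 692 of 5114 for 1 to 4 regions, and the pairs of shares were 14.4% and 13.3% for 5 to 9, 12.4% and 11.6% for 10 to 19, and 8.59% and 8.82% for 20 or more. The 2 comparisons share the E11.5 samples. Leaving out the promoters strong in EPDC lists alone kept 360 higher and gave 130 lower.

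The direction of these calls depended on the scale. On percentiles 80% of all called promoters were higher at E11.5 than at E17.5 and 88.3% of the called nearest genes. On log2(fold + 1) the shares were 36.3% and 44.3%, on log2(depth-normalized score + 1) 23.8% and 35.4%, and with equal numbers of top peaks per list 38.5% and 49.6%. Against EPDCs they were 68.5% and 71.3% on percentiles, 11.7% and 11.1% on log2(fold + 1), 31.1% and 28.6% on the score and 45.3% and 41.6% with equal numbers of peaks. The median of all promoters moved with the scale, from 0.60 and 0.79 points for E17.5 and EPDCs to -0.07 and -0.24 on log2(fold + 1) and to -0.23 and -0.14 on the log2 score, so each count is read against that of all promoters on the same scale. On that reading the nearest genes had a larger share of promoters higher than at E17.5 than all genes in 18 of 18 settings (4.88% to 25.9%, against 3.33% to 19.7%), and a larger share higher than in EPDCs in 0 of 18, in both cases without the classes of distal-region number. The share lower than in EPDCs was larger than that of all genes in 7 of 18 settings, among them log2(fold + 1).

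Opcml, Frem1 and Sox5 had promoter peaks of higher rank in the E11.5 lists than in the E17.5 lists, a difference that did not pass on fold enrichment. The Opcml promoter stood at 89.2, 90.7 and 92.2 in the E11.5 lists, at 69.5, 75.9 and 67.6 in the E17.5 lists and at 79.9, 74.6 and 80.9 in the EPDC lists. The E11.5 values lay above all others, by 19.7 ± 2.9 points (SE) from E17.5 (adjusted p = 0.000296) and 12.2 ± 2.9 from EPDCs (adjusted p = 0.00869, limma). The Frem1 promoter was at 89.4, 93.8 and 93.5 at E11.5, 70.1, 79.9 and 80.1 at E17.5 and 88.9, 88.9 and 87.9 in EPDCs. It was higher than at E17.5 by 15.5 ± 2.6 (limma adjusted p = 0.000763), whereas 3.7 ± 2.6 from EPDCs did not pass (adjusted p = 0.345). The promoter of Sox5, a transcription factor of the SoxD group, was also higher than at E17.5, with 82.9, 89.8 and 84.9 at E11.5, 69.2, 72.5 and 70.8 at E17.5 and 83.6, 79.6 and 81.7 in EPDCs (15 ± 2.7 from E17.5, limma adjusted p = 0.00131). Its difference from EPDCs, 4.3 ± 2.7, did not pass (limma adjusted p = 0.296), and the groups overlapped. On log2(fold + 1) none of these 3 differences from E17.5 passed, and the difference of Opcml from EPDCs passed neither there nor without the first E13.5 sample.

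Cdh18, Nfib and Vgll2 were also higher than at E17.5. The promoter of Cdh18, a type II cadherin, stood at 91.4, 93.1 and 90.5 at E11.5 and at 79.4, 80.5 and 79.3 at E17.5, while the EPDC values of 91.9, 91.0 and 92.2 overlapped those of E11.5 (11.9 ± 1.5, limma adjusted p = 0.000125, not passed on log2(fold + 1)). The Nfib promoter stood at 90.4, 88.0 and 89.2 against 76.2, 80.5 and 78.2, a difference of 10.9 ± 2.2 (limma adjusted p = 0.00295) that passed in all 17 alternatives. Vgll2, a cofactor of TEAD factors, stood at 75.5, 76.1 and 76.6 against 58.6, 59.3 and 51.6 (19.5 ± 3.7, limma adjusted p = 0.0019), with a change of sign to -0.02 on log2(fold + 1). Tenm2 (5.9 ± 1.8, limma adjusted p = 0.036) and Rarb (4.9 ± 1.5, adjusted p = 0.0355) passed narrowly and changed sign on log2(fold + 1). Both lost the call on log2(depth-normalized score + 1), with equal numbers of top peaks per list, and when any of several single libraries was left out.

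Other named promoters did not follow. The Hoxb1 promoter, 59.2, 61.2 and 56.9 at E11.5, was lower than the 75.5, 81.1 and 79.5 of E17.5 (-19.6 ± 6.3, limma adjusted p = 0.0421, lost when any 1 of the 6 epicardial libraries was left out) and higher than the 4.51, 20.4 and 30.2 of EPDCs (40.7 ± 6.3, adjusted p = 0.000387). The Eya4 promoter was lower than in EPDCs, with 65.4, 60.8 and 64.1 against 75.8, 85.8 and 88.6 (-20.0 ± 4.4, limma adjusted p = 0.00615). So was that of Magi1 (-5.0 ± 1.2, adjusted p = 0.0109). The promoters of Apba1, Kalrn, Rims1, Cnst, Snx7, Scg2, Bmp2, Sox11, Bnc2, Axin2, Auts2, Lin28b, Foxf2, Fgf9, Tbx15 and Epha7 passed in neither comparison, the closest being Epha7 at 1.2 ± 0.4 points from E17.5 (limma adjusted p = 0.0517). On log2(fold + 1) Auts2 and Bnc2 passed as lower than in EPDCs (-0.46 and -0.34, limma adjusted p = 0.0102 and 0.0408). With the sign unchanged, 1 alternative passed at each of Axin2 and Snx7 against E17.5 and of Fgf9, Lin28b and Epha7 against EPDCs. So did 2 at Foxf2 against EPDCs and 3 of 17 at Epha7 against E17.5. The promoters of Trhr, Abcc12, Mt4 and Tas2r118 were uncalled in all 9 lists.

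**Figure D5:**
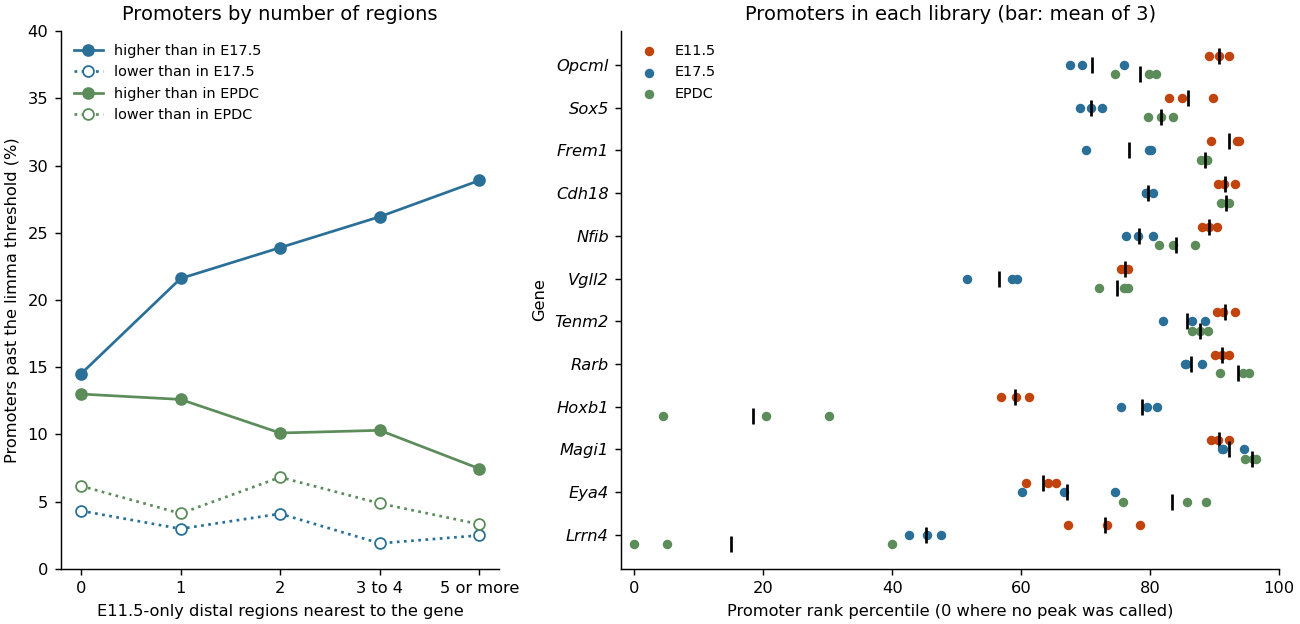
Left, share in percent of promoters past the limma threshold by number of E11.5-only distal regions nearest to the gene, in each direction against E17.5 and EPDCs. Right, promoter rank percentile in each of the 9 lists (points) with the mean of 3 (bar) for 12 named genes; for Opcml, Sox5, Frem1, Cdh18, Nfib and Vgll2 every E11.5 point lies to the right of every E17.5 point.

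Among all nearest genes, the largest promoter differences were in several cases between called and uncalled promoters, whereas Evpl, Lrrc52, Gm826 and Nos1, named here as well, were called in all lists of both groups compared. Crhbp, which encodes a corticotropin-releasing hormone binding protein, stood at 85.2, 89.7 and 83.8 at E11.5 and was uncalled in all 3 E17.5 lists (not passed on log2(fold + 1)). Gucy2d, St6gal2, Nmur2 and Gpr6 followed, higher by 74.1, 73.1, 72.1 and 68.1 points. Kcnk16, a potassium channel gene, was at 0, 0 and 1.13 at E11.5 and at 61.7, 80.7 and 77.5 at E17.5 (-72.9 points). Gm826, Lrrc52, Plxdc1 and Nos1 were lower by 55.8, 52.0, 48.6 and 46.3 points, a fall at Plxdc1 and Nos1 that did not pass on log2(fold + 1). Relative to EPDCs, Il18, a cytokine gene, led at 80.7, 84.3 and 83.2 against 33.7, 0 and 23.8 (63.6 ± 7.0, limma adjusted p = 1.31e-05), before Gm29797, Lrrn4, Evpl and Rassf9. The epicardial marker Lrrn4 stood at 67.3, 73.3 and 78.4 against 39.9, 0 and 5.08 (58.0 ± 8.6, limma adjusted p = 0.000271), but at -12.5 points when peaks up to 1 kb from a TSS were used. Il18 and Lrrn4 did not pass on log2(fold + 1). Stard9, Txn2, Msantd4, Ano10 and Serinc5 were lower than in EPDCs by 97.3 to 99.7 points, at 0 in every E11.5 list and at 96.4 or above in every EPDC list, and belong to the promoters strong in EPDC lists alone or nearly so. All these genes were named for the size of the difference. Crhbp, Kcnk16, Gm29797 and these 5 reached the 3 of 9 lists required for testing only with the group where they were high, so their differences are descriptions.

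The genes of the 14 lists were counted at their promoters as well, against shares of 16.2% and 4.05% for E17.5 and 12.7% and 5.85% for EPDCs. Of 35 epicardial identity genes and transcription factors, 6 were higher and 4 lower than at E17.5, and 11 were higher and 2 lower than in EPDCs. Of 16 retinoic acid genes 6 were higher and 0 lower than at E17.5, of 23 FGF genes 7 and 1, of 27 cadherin and desmosome genes 9 and 2, of 8 fetal timing genes 3 and 0, and of 15 Hippo pathway genes 5 and 0. Of 62 axon guidance genes 13 were higher and 1 lower, of 48 Wnt genes 12 and 4, of 29 BMP and TGF-beta genes 7 and 1, and of 18 Sox genes 4 and 1. Of 37 Hox genes 2 were higher and 3 lower, of 17 EMT genes 0 and 1, of 12 T-box genes 1 and 0 and of 4 nuclear factor I genes 1 and 0. Against EPDCs 0 Sox, nuclear factor I and Hippo pathway promoters were higher and 0 lower. Of the EMT genes 2 were higher and 3 lower, of the retinoic acid genes 2 and 2, of the T-box genes 0 and 2 and of the Wnt genes 1 and 2. Of the FGF genes 4 were higher and 0 lower, of the BMP and TGF-beta genes 4 and 1, of the cadherin and desmosome genes 5 and 2, of the axon guidance genes 6 and 2, of the Hox genes 3 and 1 and of the fetal timing genes 1 and 0.

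Distal regions near the E11.5-only ones were compared in the same way, without the E11.5-only regions themselves. Of 81502 tested, 33.1% were higher and 13.6% lower in E11.5 than in E17.5 epicardium, and 29.9% were higher and 16.7% lower than in EPDCs. Among the tested were the 4000 E17.5-only and 4211 EPDC-only regions, which reached the 3 lists required only through the group where they were high. With the E11.5-only regions taken out and these kept, the split between higher and lower calls was in part fixed beforehand. Within 50 kb of an E11.5-only region lay 22493 of them. Of these, 8151 (36.2%) were higher and 2749 (12.2%) lower than at E17.5, and 7227 (32.1%) were higher and 3448 (15.3%) lower than in EPDCs. The lower counts fell to 1390 and 1480 without E17.5 replicates 2 and 3, and to 1993 and 1944 without the E13.5 samples. The excess was not found in the closest bin: the share higher than at E17.5 was 31.7% within 5 kb, 38.3% from 5 to 20 kb, 35.7% from 20 to 50 kb and 31.9% beyond. Against EPDCs it was 28.3%, 33.8%, 31.7% and 29.1%. All distal regions together stood 7.05 points above E17.5 and 5.26 above EPDCs in the median, a shift that was 0.00 with equal numbers of top peaks. The neighbours' share stayed above that of all tested regions in 18 of 18 settings for both comparisons. Of all called regions, 70.9% were higher than at E17.5 and 64.2% higher than in EPDCs, against 51.3% and 51.8% with equal numbers of peaks, where 55.7% and 55.3% of the called neighbours were higher.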

How the data were processed

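The authors aligned 40-bp paired ATAC-seq reads to mm10 with the nf-core pipeline (version 2.0), removing duplicates, multi-mapped, mitochondrial and blacklisted reads, and called peaks per sample with MACS2 2.2.9.1 at q 0.01. The deposited lists give each peak's interval, summit, fold enrichment over local background (a ratio), and -log10 p and q as MACS2 wrote them. They hold no read counts, so the study's count tests could not be run, and 10 labelled samples are represented by 9 lists. The GEO labels and the paper's methods differ on the number of E13.5 hearts pooled (4 to 13 in the labels).

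The region rule, gene lists and named genes were chosen with earlier results of these data known. Named were the 12 regions of highest mean percentile, the leading region of each list, the 5 genes with most regions and, among nearest genes, the 5 largest promoter differences in each direction of each comparison. TSSs came from GENCODE M21, sequences from GRCm38. Patterns were searched around the summit of the strongest E11.5 peak of a region, and of the strongest peak of any list in the other sets. The number of fragments at a summit was solved from fold and p. The calling limit is the fewest fragments of a called summit whose local background was within 5% of the genome background. Promoters and distal regions called by at least 3 of 9 lists were compared with limma 3.58.1 (R 4.3.3, trend and robust) on the percentiles of all 9 lists, with Benjamini-Hochberg adjusted p under 0.05 over each table. The scripts used Python 3.11.15, pandas 2.3.3, scipy 1.17.1 and pysam 0.24.0 and were tested on simulated data. Some named items are not reported here. The biological replicates were separate heart pools.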

Additional observations from a re-analysis of the deposited data

How the results depend on the processing

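The rule gave 4702 to 6000 regions with stricter peaks, a wider gap to other peaks or TSSs, chromosome X, summit windows, or calls by a summit inside regions merged from the E11.5 lists alone, but 2748 with equal numbers of top peaks per list, and 5894 to 8904 with 1 library left out, 8904 being without E11.5 replicate 1. Regions at percentile 50 or above in all 3 lists numbered 74 with equal top peaks, 585 by fold and 272 to 553 with 1 library left out, 553 without E11.5 replicate 1 and 467 without the E12.5 EPDC sample. The list lengths bound every count that rests on an absent call.

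Nearest-gene promoters higher than at E17.5 on log2(fold + 1) numbered 151, 466 on the depth-normalized score, 452 with equal top peaks and 484 to 796 with 1 library left out. Those lower numbered 190, 850, 459 and 52 to 137 (56 and 52 without E17.5 replicates 2 and 3), and 150 with the 6 epicardial libraries alone. Higher than in EPDCs were 102 on log2(fold + 1) and 158 to 559 with 1 library left out (158 and 559 without the first and second E13.5 samples, 234, 173 and 200 without E11.5 replicates 1, 2 and 3). Lower were 813 on log2(fold + 1), 677 on the score, 398 with equal top peaks and 64 to 145 with 1 library left out (64 and 89 without the E13.5 samples). Neighbours higher than at E17.5 numbered 3677 within 20 kb, 4969 on log2(fold + 1), 4943 with equal top peaks, 3159 where all 9 lists called the region and 6751 to 8603 with 1 library left out. Those lower numbered 1194, 481 (20 kb, all 9 lists) and 1390 to 2953 (1390 and 1480 without E17.5 replicates 2 and 3). Against EPDCs they were 3255, 4290 (log2(fold + 1)), 2760 and 5633 to 7759 higher, and 1517, 843 and 1944 to 3359 lower (1993 and 1944 without the E13.5 samples). The counts at 20 kb and with all 9 lists come from a smaller window or region set. With all 9 lists the share of called neighbours that were higher also moved, from 74.8% to 86.8% against E17.5 and from 67.7% to 76.6% against EPDCs. The cause of this and of the other shifts was not tested.

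Shares over all distal regions are given in percentage points, also for the 266 regions counted above for their percentile in every E11.5 list. Values among the 266 and with equal top peaks were not matched to all distal regions for peak strength. TEAD stood at 5.5 (13.1 among the 266, 7.2 with equal top peaks). The homeobox value was 4.3 (2.4 within 100 bp of the summit, 9.6 among the 266). TBX had 3.5 (2.0 within 100 bp, 1.5 with equal top peaks). NFI had -4.6 (-5.9 among the 266, -3.4 with equal top peaks). TGACAG had 3.1 (1.1 among the 266). AP-1 had -2.1 (reversed to 10 among the 266, -0.2 with equal top peaks). SOX had 0.9 (reversed to -0.4 within 100 bp, 2.4 among the 266). Signs changed on log2(fold + 1) at the promoters of Rarb (-0.08), Tenm2 (-0.10) and Vgll2 (-0.02) against E17.5 and of Auts2 (-0.46), Bnc2 (-0.34) and Vgll2 (-0.41) against EPDCs, and at Lrrn4 (-12.5, EPDCs, 1-kb window). Replicate numbers did not pair the epicardial samples: the correlations of deviations over promoters were -0.00816, 0.100 and -0.0942, and the replicate block gave 793 higher and 150 lower promoters against 775 and 150 without it in the same 6 libraries. Leaving out features strong in EPDC lists alone was added after seeing the data and gave 360 and 130 promoters, 7227 and 3427 neighbours and 5809 regions.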
